A study of Mus musculus with 33 samples.

Results

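The genes examined encode the receptors for colony-stimulating factors and progenitor growth factors and the corresponding ligands made close to macrophages. They are Csf1r, Csf2ra, Csf2rb, Csf2rb2, Csf3r, Flt3, Kit, Csf1 and Csf2, chosen by gene symbol. These are 9 of the 24421 genes counted in each sample. Kupffer cells (KCs, the resident macrophages of the liver) were sorted in 3 groups of 6 samples. CRE- KCs came from Zeb2fl/fl mice, and Tim4+ and Tim4- KCs came from Clec4f-crexZeb2fl/fl mice (CRE+ below). Alveolar macrophages (AMs, the resident macrophages of the lung airspaces) were sorted in 3 groups of 5 samples. CRE- AMs came from Zeb2fl/fl mice, and CD11b- and CD11b+ AMs came from Itgax-crexZeb2fl/fl mice. The source names call the CRE- groups WT and the CRE+ groups Zeb2KO. The study's controls were Zeb2fl/fl littermates, so all mice are taken here to carry the loxP-flanked Zeb2 alleles. Per the study's methods, which do not give this for single samples, mice were on a C57Bl/6 background, 6 to 8 weeks old and of both sexes, with littermates as controls.

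The groups have limits as models of Zeb2 loss. Per the study's text, CRE+ cells of both organs held cells that had lost both Zeb2 copies beside cells that kept 1 copy, and the recombined allele still gives a truncated mRNA. The Zeb2 count therefore does not measure the deletion. Zeb2 was at 283 ± 38.7 CPM (SD, n = 6; CPM are counts scaled to library size and composition) in CRE- KCs and at 194 ± 16.3 CPM (SD, n = 5) in CRE- AMs. Every CRE+ sample was below every CRE- sample of its organ, and the log2 fold changes were -0.71 (Tim4+ KCs), -0.76 (Tim4- KCs), -0.89 (CD11b- AMs) and -1.66 (CD11b+ AMs). The Cre of the KC line is driven by Clec4f, and per the study this line also labelled a small group of B cells that do not carry Clec4F themselves. The Cre of the AM line is driven by Itgax (CD11c), which is active in other CD11c-bearing cells as well. In the study, Tim4 on KCs went with a longer stay in the liver. CRE+ KCs without SiglecF and Tim4 were defined there as putative monocyte-derived cells, newly arrived. Tim4- KCs may thus differ from CRE- KCs in origin as well as in Zeb2, and these cannot be told apart here. Cells were purified by flow cytometry, and the full set of sort markers of these bulk samples is not given in the sources used here.

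Between 9837240 and 24332306 reads were counted on genes per sample, with a median of 20683608, and the shallowest was Tim4- KC replicate 1. The labels do not say whether samples came from separate mice, so p-values measure the spread between these samples only. The 5 KC markers fixed for the check (Clec4f, Vsig4, Timd4, Cd5l, Cdh5) summed to 21153 to 23175 CPM in CRE- KCs and to at most 2.52 CPM in CRE- AMs. They were lower in CRE+ KCs, at 12239 to 13654 CPM in Tim4+ and 8828 to 10358 CPM in Tim4- cells. The 6 AM markers (among them Car4, Krt79 and Chil3) summed to 18908 to 29351 CPM in CRE- AMs and to 301 to 1133 CPM in CRE- KCs, where Car4 and Krt79 were at 0. The sum was 21930 to 31324 CPM in CD11b- and 39373 to 54316 CPM in CD11b+ AMs. By an edgeR adjusted p under 0.05 and over 2-fold change, 2 of the 6 were higher and 3 lower in CD11b+ than in CRE- AMs. In Tim4+ and Tim4- KCs the sums were 1386 to 2200.5 and 453 to 707 CPM. Of the 3 tested there, 2 were higher in Tim4+ than in CRE- KCs by the same threshold. In Tim4- KCs 2 were higher and 1 lower. The AM markers include Siglecf, whose product the study reports on KCs that lost both Zeb2 copies. Replicates 5 and 6 of each KC group had 1304 to 1720 counts of the Y-linked gene Ddx3y, and all other samples had at most 3, the AM samples at most 1. The female transcript Xist had 0 counts in those replicates and 228 to 643 counts in all other samples. Those replicates are therefore taken as male and all other samples, with every AM sample, as female. Comparisons of KCs with AMs thus set KCs of both sexes beside female AMs. Results in KCs are given below with and without samples left out by their Ddx3y count, where this changed them.

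CSF1R is the receptor for the macrophage growth factor CSF-1 and for interleukin-34, and mice that lack it lose most tissue macrophages. The GM-CSF receptor pairs an α-chain from Csf2ra with a β-chain from Csf2rb, signals through JAK2 and STAT5, and is needed for AMs to form and clear surfactant. Csf2rb2 encodes a close mouse copy of the β-chain that serves interleukin-3. Csf3r encodes the receptor for G-CSF, best known from neutrophils. FLT3 and KIT are tyrosine kinase receptors of blood progenitors that belong to the same structural class as CSF1R. FLT3 stays on dendritic cells, and KIT stays on mast cells and is also made by some endothelial cells. Csf1 and Csf2 encode CSF-1 and GM-CSF.

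RefSeq promoter entries (GRCm38.p6) were found for 7 of the 9 members, and 4 are shown here, of members that the comparisons below turn on: Csf2ra, which was higher in AMs, Csf3r, which rose in CRE+ AMs, Csf1, which rose in CD11b+ AMs, and Kit, which fell in Tim4- KCs. Each covers up to 250 bases before the annotated start, 5′ to 3′ on the gene's strand. The bases nearest the start that lie inside the GENCODE gene are left out for Csf3r (109 bases) and Kit (71 bases), while the last 11 bases shown for Csf2ra lie inside it. Capitals mark the motif GAGGAA, read on the other strand as TTCCTC, the core of sites of PU.1, a factor that macrophage receptor genes are known to use.
Csf2ra: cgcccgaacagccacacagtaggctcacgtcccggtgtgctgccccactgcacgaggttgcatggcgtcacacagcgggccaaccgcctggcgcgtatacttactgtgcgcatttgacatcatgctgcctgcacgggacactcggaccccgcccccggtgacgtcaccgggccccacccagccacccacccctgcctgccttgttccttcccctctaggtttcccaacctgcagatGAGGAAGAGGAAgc
Csf3r: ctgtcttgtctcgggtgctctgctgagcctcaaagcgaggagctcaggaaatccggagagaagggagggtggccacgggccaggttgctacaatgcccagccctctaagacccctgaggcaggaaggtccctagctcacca
Csf1: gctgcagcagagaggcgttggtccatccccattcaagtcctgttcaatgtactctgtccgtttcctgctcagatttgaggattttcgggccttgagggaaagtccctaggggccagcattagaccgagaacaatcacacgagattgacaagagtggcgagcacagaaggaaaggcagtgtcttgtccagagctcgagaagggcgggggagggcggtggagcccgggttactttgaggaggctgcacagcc
Kit: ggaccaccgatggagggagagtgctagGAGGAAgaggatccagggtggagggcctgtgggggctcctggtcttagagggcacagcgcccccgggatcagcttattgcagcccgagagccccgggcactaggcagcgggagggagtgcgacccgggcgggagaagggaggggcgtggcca

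The Csf2ra stretch lies at chr19:61228419-61228668 on the minus strand, that of Csf3r at chr4:126024409-126024549 on the plus strand, that of Csf1 at chr3:107760470-107760719 on the minus strand and that of Kit at chr5:75574737-75574915 on the plus strand. GAGGAA occurred 2 times side by side in the Csf2ra window, at -14 to -9 and -8 to -3 from the start, and once in the Kit window at -223 to -218. In Csf3r it occurred at -86 to -81, in the part not printed, and in Csf2rb2 it lay on the other strand at -167 to -162. No match was found in the windows of Csf1, Flt3 and Csf2. Of all 32851 RefSeq mouse promoters, 23.3% held GAGGAA on either strand in a window of the same length. The letters CACCTG, which read CAGGTG on the other strand, form an E-box that ZEB factors can bind. They occurred in 17.2% of the promoters and, among the 7 members, only in Csf2, at -121 to -116. These matches describe letters, and binding was not measured here.

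CRE- KC and CRE- AM samples differed in the transcripts of these receptors. KCs were far higher in Csf1r and also higher in Kit and Csf1, which moved with liver endothelium markers among KC samples, as given below. Flt3 was higher in KCs at very low levels, a difference called in 6 of 19 alternative settings. AMs were higher in both main chains of the GM-CSF receptor, Csf2ra and Csf2rb. Of the 8 members tested, 6 passed an adjusted p under 0.05 with over 2-fold change, 4 higher and 2 lower in KCs, beside 33.3% of the 12145 genes tested. The median log2 fold change of the members, KCs over AMs, was 1.69, against 0.03 over all genes. Csf2 had too few counts to be tested in any comparison.

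**Figure D1:**
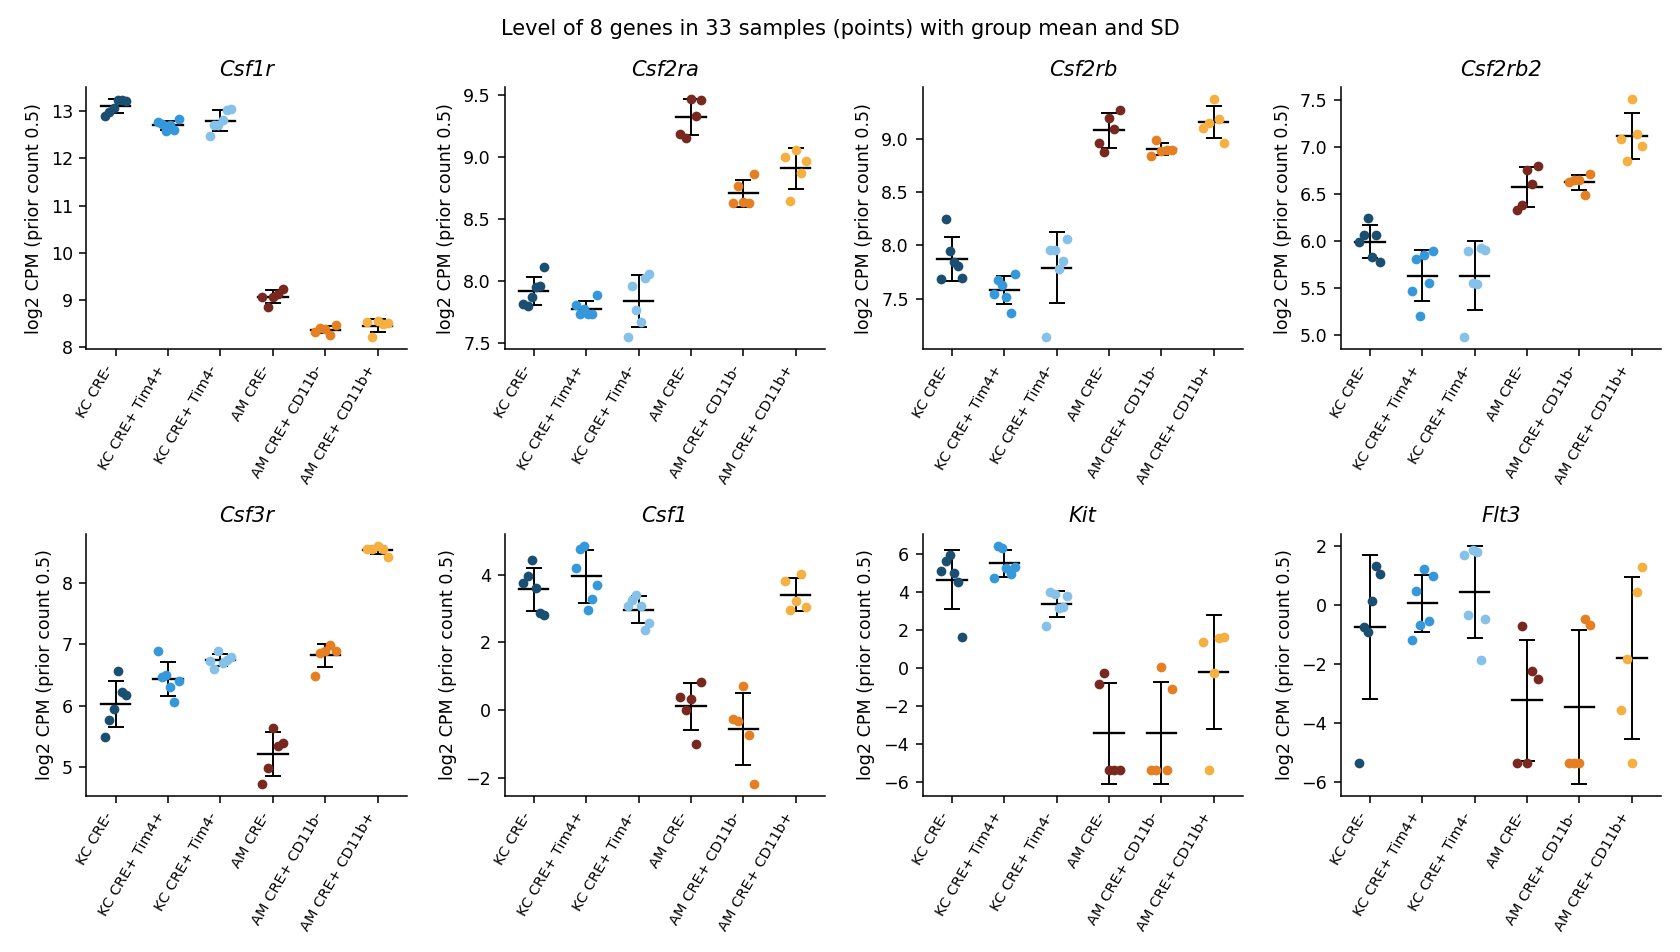
Log2 CPM of each member (1 panel per gene) in each sample, for the 8 genes that could be tested, with groups along the x axis, points as samples, and long bars and error bars as group means and SD. Every KC sample lies above every AM sample for Csf1r and below for Csf2ra and Csf2rb, Csf3r is highest in CD11b+ AMs, and the lowest points for Flt3 and Kit are samples with 0 counts. The y ranges differ between panels.

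Csf1r was among the most abundant transcripts of KCs. In CRE- KCs it ran from 7571 to 9645 CPM with a median of 9006 CPM (mean 8813 ± 895, SD, n = 6). In the 5 CRE- AM samples it was at 534, 464, 532, 559 and 606 CPM (mean 539 ± 51.5, SD, n = 5). The groups were far apart, KCs exceeding AMs by 4.04 on the log2 scale (SE 0.094, adjusted p = 1.14e-13 by the quasi-likelihood test of edgeR, Benjamini-Hochberg adjusted over all genes tested). Per kilobase of exon, Csf1r ranked 23rd in CRE- KCs and 521st in CRE- AMs among the 23376 genes with a known length.

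Csf1r was lower in every CRE+ group, always by less than 2-fold. In KCs it ran from 6090 to 7245 CPM in Tim4+ cells (median 6724) and from 5673 to 8473 CPM in Tim4- cells (median 6918). Tim4+ samples were all below the CRE- range, and Tim4- samples overlapped it. The log2 fold changes from CRE- KCs were -0.42 (SE 0.09, edgeR adjusted p = 0.0047) and -0.32 (SE 0.09, edgeR adjusted p = 0.012). Without the 8 KC samples that had any Ddx3y count the Tim4+ value was -0.26 (edgeR adjusted p = 0.29). Those 8 include CRE- KC replicate 4 and Tim4+ KC replicate 3, with only 1 and 3 Ddx3y counts. Without replicates 5 and 6 alone, Csf1r averaged 8449 ± 895 CPM in CRE- and 6626 ± 377 CPM in Tim4+ KCs (SD, n = 4). In AMs the 5 CD11b- samples were at 320, 342, 337, 307 and 355 CPM and the 5 CD11b+ samples at 369, 296, 378, 362 and 365 CPM, all below the CRE- AM range. Their log2 fold changes were -0.71 (SE 0.075, edgeR adjusted p = 8.68e-07) and -0.62 (SE 0.075, edgeR adjusted p = 1e-06). Csf1r, on chromosome 18, shares 873 exon bases with Hmgxb3 on the opposite strand. Hmgxb3 stayed between 13.0 and 38.6 CPM in all samples, and whether reads were counted by strand is not given in the sources used here.

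The GM-CSF receptor chains showed the opposite order of organs. Csf2ra, the α-chain (chr19:61223957-61228429, minus strand), was at 583, 571, 707, 645 and 704 CPM in CRE- AMs and at 223 to 276 CPM (median 241) in CRE- KCs. Csf2rb, the shared β-chain (chr15:78325752-78353847, plus strand), was at 497, 469, 586, 544 and 617 CPM in CRE- AMs and at 206 to 304 CPM (median 227) in CRE- KCs. Neither gene overlapped between the organs. The log2 fold changes of KCs over AMs were -1.39 for Csf2ra (SE 0.078, edgeR adjusted p = 9.99e-10) and -1.19 for Csf2rb (SE 0.11, edgeR adjusted p = 1.8e-07). Csf2rb2 (chr15:78282507-78305721, minus strand) averaged 64.0 CPM in KCs (SD 7.63, n = 6) and 96.0 CPM in AMs (SD 14.0, n = 5). That difference, -0.57 on the log2 scale (SE 0.11, edgeR adjusted p = 0.00032), was under 2-fold, as was that of Csf3r, which was higher in KCs by 0.82 (SE 0.19, edgeR adjusted p = 0.0017).

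Csf2rb and Csf2rb2 are neighbouring near-copies. Of the 50-base stretches of the longest Csf2rb transcript, 18.39% also occur in a transcript of Csf2rb2. Of those of the longest Csf2rb2 transcript, 19.02% occur in a transcript of Csf2rb. Counting could therefore have split or dropped their shared reads, and their separate values are uncertain. Per length over all annotated exons, Csf2rb2 stood at 0.271 times Csf2rb in CRE- AMs and at 0.418 times in CRE- KCs. These ratios depend on the length used. By its longest transcript Csf2rb stood at 110.7 rather than 74.55 CPM per kilobase in CRE- AMs and at 48.14 rather than 32.42 in CRE- KCs. The length of Csf2rb2 was 4740 bases either way. Both genes also overlap an annotated microRNA by 62 exon bases on the same strand.

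The balance of the CSF-1 and GM-CSF receptors was measured within each sample as the log2 ratio of Csf1r to Csf2ra per kilobase of exon. It was 4.17 ± 0.088 (SD, n = 6) in CRE- KCs, 3.91 ± 0.076 in Tim4+ KCs and 3.95 ± 0.13 in Tim4- KCs. It was -1.26 ± 0.11 (SD, n = 5) in CRE- AMs, -1.34 ± 0.06 in CD11b- AMs and -1.45 ± 0.048 in CD11b+ AMs. Csf1r thus stood 18-fold above Csf2ra in CRE- KCs and at 0.418 times Csf2ra in CRE- AMs. The lowest KC value was 3.73 and the highest AM value -1.14, so the CRE+ cells of each organ stayed on the side of their own CRE- cells.

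**Figure D2:**
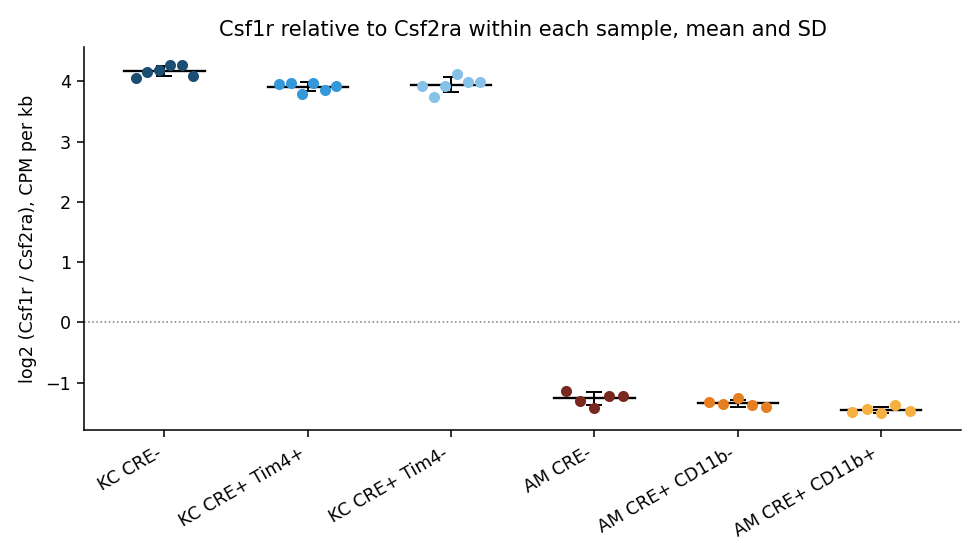
Log2 ratio of Csf1r to Csf2ra, both as CPM per kilobase of exon, for each sample of the 6 groups, with the mean (long bar) and SD (error bar). KC samples lie between 3.73 and 4.28, AM samples between -1.5 and -1.14, and the dotted line marks equal levels.

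In CRE+ AMs the main change among the members was in Csf3r, and in CD11b+ AMs also in Csf1. Csf3r passed in CD11b- AMs as the 1 member of 8 tested, beside 6.5% of all genes. In CD11b+ AMs the 2 genes Csf3r and Csf1 passed against CRE- AMs, beside 15.3% of all genes, and the same 2 genes passed against CD11b- AMs, beside 10.2%. All of these were increases. The members' median log2 fold changes, in that order, were -0.08, 1.30 and 1.07, with all genes at 0.00, -0.01 and 0.02. Both CRE+ groups were compared with the same CRE- samples. CD11b was the sort marker that separates both groups.

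Csf3r (chr4:126024550-126044440, plus strand) was at 26.5, 31.9, 49.9, 40.7 and 42.2 CPM in CRE- AMs, at 89.7, 116, 118, 127 and 118 CPM in CD11b- AMs, and at 375, 373, 388, 373 and 342 CPM in CD11b+ AMs. The 3 groups did not overlap. The log2 fold changes were 1.56 for CD11b- over CRE- (SE 0.13, edgeR adjusted p = 2.9e-08), 3.26 for CD11b+ over CRE- (SE 0.14, edgeR adjusted p = 2.2e-13) and 1.70 for CD11b+ over CD11b- (SE 0.13, edgeR adjusted p = 4.48e-09). Per kilobase, Csf3r moved from rank 3710 in CRE- AMs to rank 524 in CD11b+ AMs, close to that of Csf1r in CRE- AMs. It was called in these 3 comparisons under each of the 22 alternative settings tried.

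Genes known from neutrophils moved with Csf3r. Of the 10 neutrophil markers, 7 could be tested, of which 5 rose in CD11b- AMs and 7 in CD11b+ AMs against CRE- AMs, with median log2 fold changes of 3.21 and 7.44. Their summed level was 54.1 to 74.1 CPM in CRE- AMs, 937 to 2517 CPM in CD11b- AMs and 7941 to 10381 CPM in CD11b+ AMs. Most of the sum came from S100a8 and S100a9, which encode the calprotectin subunits also made by monocytes, and from Cxcr2, a chemokine receptor. S100a8 ran from 4067 to 5235 CPM and Cxcr2 from 498 to 641 CPM in CD11b+ AMs. The granule gene Ngp was at 0 in every CRE- and CD11b- AM sample and at 0 to 13.8 CPM in CD11b+ AMs, and Camp reached 3.48 CPM at most. Ly6g is not among the genes counted.

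Over the 15 AM samples the log2 levels of Csf3r and the neutrophil sum had r = 0.972, and 0.295 once each group's mean was removed. The points share their libraries and group labels. Of the 6 monocyte markers 5 could be tested, with 5 higher in CD11b+ AMs and 1 in CD11b- cells. Their sum was 5.97 to 11.6 CPM in CRE- AMs, 12.5 to 25.3 CPM in CD11b- AMs and 71.6 to 262 CPM in CD11b+ AMs. In these bulk samples more RNA per cell and more cells of another type cannot be told apart.

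Csf1 (chr3:107741048-107760469, minus strand) was at 1.29, 0.975, 1.23, 0.475 and 1.77 CPM in CRE- AMs, at 0.811, 0.776, 1.63, 0.577 and 0.197 CPM in CD11b- AMs, and at 14.0, 7.66, 9.33, 16.3 and 8.29 CPM in CD11b+ AMs. Every CD11b+ sample lay above every other AM sample, and CRE- and CD11b- AMs overlapped. Against CRE- AMs the log2 fold change was 3.25 in CD11b+ AMs (SE 0.41, edgeR adjusted p = 2.05e-06) and -0.52 in CD11b- AMs (SE 0.43, edgeR adjusted p = 0.42). CD11b+ AMs exceeded CD11b- AMs by 3.77 on the log2 scale (SE 0.43, edgeR adjusted p = 1.04e-06). Csf1 was called in both CD11b+ comparisons under all 22 alternative settings. Stellate cell and fibroblast markers, which mark known sources of CSF-1, summed to 2.43 to 24.3 CPM in CD11b+ AMs and 3.11 to 17.9 CPM in CRE- AMs, and 0 of the 3 tested passed with edgeR, limma-voom or DESeq2 or had an unadjusted p under 0.05. The monocyte sum, given above, was also highest in CD11b+ AMs, and over the 15 AM samples its log2 level and that of Csf1 had r = 0.786, and -0.399 within groups. For Csf1 and the neutrophil sum r was 0.62, and 0.0233 within groups. Liver endothelium markers summed to 1.32 to 2.73 CPM in CRE- AMs, 3.50 to 12.4 CPM in CD11b- AMs and 26.4 to 40.2 CPM in CD11b+ AMs, where 1 of the 3 tested was higher (Lyve1, at 7.92 on the log2 scale over CRE- AMs). The part of these cells in the Csf1 values was not tested.

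**Figure D3:**
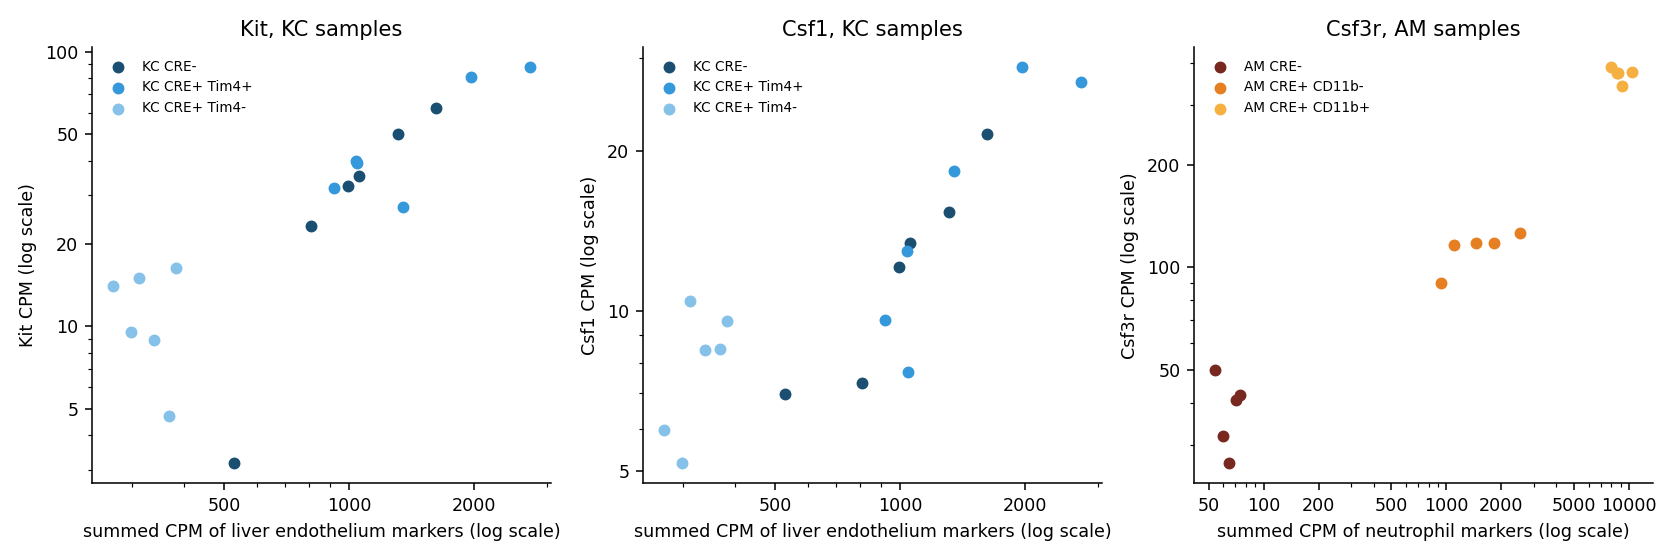
Kit (left) and Csf1 (middle) in the 18 KC samples against the summed CPM of 6 liver endothelium markers, and Csf3r (right) in the 15 AM samples against the summed CPM of the neutrophil markers, each point a sample and all axes on log scales. Tim4- KCs lie at the left with sums of 269 to 383 CPM, and the AM groups form 3 separate clouds.

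The chains of the GM-CSF receptor differed by under 2-fold between CRE+ and CRE- AMs. Csf2ra was at 397, 435, 399, 395 and 466 CPM in CD11b- AMs and at 513, 399, 533, 468 and 501 CPM in CD11b+ AMs, all below the CRE- AM range. The log2 fold changes of -0.63 (SE 0.082, edgeR adjusted p = 1.22e-05) and -0.43 (SE 0.082, edgeR adjusted p = 0.00026) passed the test but were under 2-fold. Csf2rb had log2 fold changes of -0.19 and 0.06, with edgeR adjusted p of 0.076 and 0.58. Csf2rb2 was higher in CD11b+ AMs, at 115 to 182 CPM with no overlap with the other AM groups, by 0.53 over CRE- AMs (SE 0.11, edgeR adjusted p = 0.0005). The log2 ratio of Csf2rb to Csf2ra per length was -1.59 ± 0.037 in CRE- AMs, -1.15 ± 0.094 in CD11b- AMs and -1.10 ± 0.2 in CD11b+ AMs (SD, n = 5), and CRE- AM samples did not overlap the others.

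**Figure D4:**
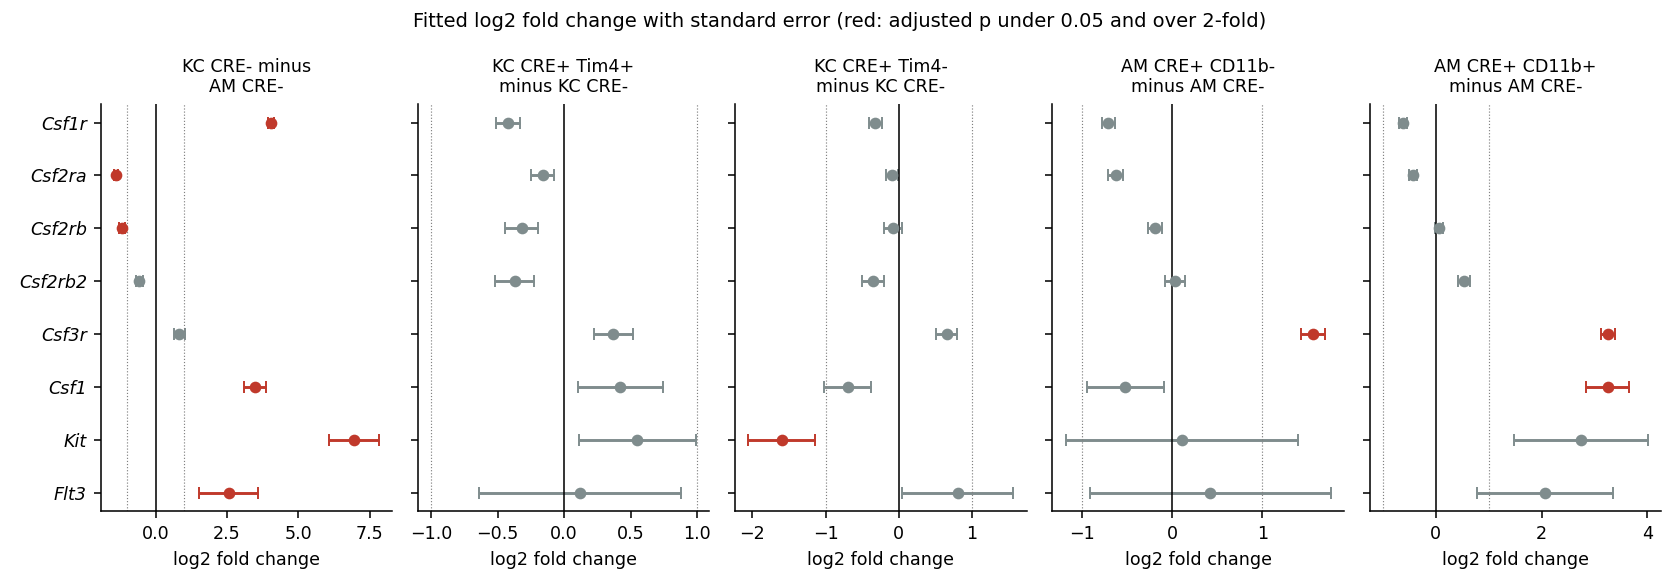
Log2 fold change of the 8 tested members with its standard error, in 5 panels, KCs over AMs among CRE- cells and each CRE+ group over the CRE- cells of its organ, with the x range set for each panel separately. Red points passed an adjusted p under 0.05 with over 2-fold change, among them Kit (6.95) and Csf1r (4.04) for KCs over AMs and Csf3r (3.26) and Csf1 (3.25) for CD11b+ AMs.

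In CRE+ KCs the receptors for CSF-1, GM-CSF and G-CSF kept within 2-fold of CRE- KCs, and the members that passed were Kit and Csf1, both lower in Tim4- cells. In Tim4+ KCs 0 of the 8 tested members passed against CRE- KCs with edgeR, limma-voom or DESeq2, beside 2.31% of all genes, and 4 had an unadjusted p under 0.05. In Tim4- KCs 1 of 8 passed (Kit), beside 8.82% of all genes. Between Tim4- and Tim4+ KCs 2 of 8 passed (Kit and Csf1), beside 5.45%. The members' median log2 fold changes in the same order were -0.02, -0.21 and 0.09, with all genes at -0.00, -0.03 and 0.01. Both CRE+ groups share the CRE- samples, and Tim4 was the sort marker between them.

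Kit (chr5:75574916-75656722, plus strand) varied widely among CRE- KCs, from 3.16 to 62.3 CPM with a median of 33.9 CPM. It ran from 27.1 to 87.9 CPM in Tim4+ KCs (median 39.6) and from 4.69 to 16.3 CPM in Tim4- KCs (median 11.8). Tim4- and Tim4+ samples did not overlap, while 1 CRE- sample, replicate 6 at 3.16 CPM, lay below all Tim4- samples. The log2 fold changes were -2.15 for Tim4- against Tim4+ (SE 0.46, edgeR adjusted p = 0.0037) and -1.60 for Tim4- against CRE- (SE 0.46, edgeR adjusted p = 0.014). The second was not called with limma-voom, which gave -1.12 and an adjusted p of 0.23. In AMs Kit reached 3.13 CPM at most and was at 0 in 3 of 5 CRE-, 3 of 5 CD11b- and 1 of 5 CD11b+ samples, and KCs exceeded AMs among CRE- cells by 6.95 on the log2 scale (SE 0.87, edgeR adjusted p = 6.69e-06), a size that depends on the few AM counts.

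Csf1 in KCs ran from 6.97 to 21.5 CPM in CRE- cells (median 12.8), from 7.66 to 28.8 CPM in Tim4+ cells (median 15.7) and from 5.16 to 10.4 CPM in Tim4- cells (median 8.46). All 3 groups overlapped. Tim4- cells were below Tim4+ cells by a log2 fold change of -1.12 (SE 0.32, edgeR adjusted p = 0.026), and against CRE- KCs the value was -0.69 (SE 0.32, edgeR adjusted p = 0.12). The call between Tim4- and Tim4+ cells was lost on leaving out Tim4+ replicate 2 (-0.95, adjusted p = 0.085), Tim4+ replicate 3 (-0.92, adjusted p = 0.073), Tim4- replicate 5 (-1.02, adjusted p = 0.06) or Tim4- replicate 6 (-1.05, adjusted p = 0.055), all with edgeR, and with limma-voom (-0.98, adjusted p = 0.086). Among CRE- cells KCs exceeded AMs by 3.48 (SE 0.38, edgeR adjusted p = 1.55e-06).

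Markers of liver endothelium moved with both genes. All 6 of them (Stab2, Lyve1, Clec4g, Ptprb, Kdr, Oit3) were lower in Tim4- KCs than in CRE- KCs and than in Tim4+ KCs, with median log2 fold changes of -1.59 and -2.21. Their sum was 528 to 1624 CPM in CRE- KCs, 921 to 2735 CPM in Tim4+ KCs and 269 to 383 CPM in Tim4- KCs. Over the 18 KC samples the log2 levels of the sum and of Kit had r = 0.834, and 0.736 within groups, and the sum and Csf1 had r = 0.835, and 0.882 within groups. As a percentage of the endothelial sum, Kit was 0.598 to 3.84% in CRE- KCs, 2.01 to 4.11% in Tim4+ KCs and 1.27 to 5.21% in Tim4- KCs, which overlapped. Csf1 was 0.902 to 1.33%, 0.734 to 1.46% and 1.74 to 3.36% in the same order, so its share of the sum was higher in every Tim4- sample than in any other KC sample.

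Between the organs, all 6 endothelium markers were higher in CRE- KCs than in CRE- AMs, with a median log2 fold change of 10.76 and sums of 528 to 1624 against 1.32 to 2.73 CPM, beside the KC excess in Kit (6.95) and Csf1 (3.48) given above. The share of endothelial RNA in the Kit and Csf1 values was not tested, within KCs or between organs. The 7 mast cell and basophil markers, another known source of Kit, summed to at most 4.28 CPM in any sample, and none had enough counts to be tested. The hepatocyte sum overlapped between the KC groups (141 to 380, 117 to 331 and 71.0 to 191 CPM for CRE-, Tim4+ and Tim4- cells), as did that of stellate cells and fibroblasts (17.7 to 30.8, 16.9 to 25.5 and 12.3 to 22.3 CPM). In Tim4- against CRE- KCs the hepatocyte markers had a median log2 fold change of -0.73, with 1 of 6 lower by edgeR and 5 at an unadjusted p under 0.05. The stellate cell and fibroblast markers had a median of -0.68, with 0 of 5 called by edgeR or DESeq2, 1 by limma-voom and 1 at an unadjusted p under 0.05 with edgeR.

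The 2 samples with Y-linked counts in each KC group stood lower in Csf1 in CRE- KCs (6.97 to 7.31 CPM, against 12.1 to 21.5 CPM in the other 4) and in Tim4- KCs (5.16 to 5.98 against 8.46 to 10.4 CPM). In Tim4+ KCs they overlapped the others in Csf1 (9.62 to 13.0 against 7.66 to 28.8 CPM). In Kit they stood lower in CRE- KCs (3.16 to 23.1 against 32.4 to 62.3 CPM) and overlapped the others in both CRE+ groups. Their liver endothelium sums were the lowest of each KC group. These sums were 528 and 810 CPM in CRE-, 921 and 1041 CPM in Tim4+ and 269 and 297 CPM in Tim4- KCs. The part of endothelial RNA in these differences was not tested. Without those 6 samples Kit and Csf1 both stayed called between Tim4- and Tim4+ KCs, a setting chosen after the data were seen. Without all 8 samples that had any Ddx3y count, as planned, Csf1 was not called there (-0.91, edgeR adjusted p = 0.12).

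Csf3r in KCs was at 45.2 to 94.5 CPM in CRE- cells (median 67.0), 66.8 to 119 CPM in Tim4+ cells (median 86.5) and 97.2 to 119 CPM in Tim4- cells (median 107). All Tim4- samples lay above all CRE- samples. The log2 fold change of 0.66 (SE 0.14, edgeR adjusted p = 0.0021) was under 2-fold, and that of Tim4+ cells, 0.37, had an adjusted p of 0.16. Neutrophil markers in KCs summed to at most 83.1 CPM. Csf2ra and Csf2rb in CRE+ KCs, at 187 to 266 CPM and 141 to 267 CPM, did not pass against CRE- KCs, their adjusted p lying between 0.16 and 0.67.

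The difference between CRE+ and CRE- cells was compared between organs by an interaction term. It is the mean log2 change of both CRE+ groups in KCs less that in AMs. Of the 8 members, 2 differed by over 2-fold, beside 8.15% of the 13294 genes tested, and the members' median was -0.71 with all genes at 0.01. Csf3r differed by -1.89 (SE 0.18, edgeR adjusted p = 1.55e-09) and Csf1 by -1.49 (SE 0.48, edgeR adjusted p = 0.023), the mean change being lower in KCs for both. For Csf1 the AM mean joins groups of opposite sign, -0.52 in CD11b- and 3.25 in CD11b+ AMs when each organ was fitted alone. The KC values were 0.42 in Tim4+ and -0.69 in Tim4- cells, so the KC change was not lower than that of CD11b- AMs in Tim4+ cells. The call for Csf1 was lost without CD11b- AM replicate 3 (-1.28, adjusted p = 0.052), CRE- AM replicate 4 (-1.30, adjusted p = 0.06) or CRE- KC replicate 3 (-1.28, adjusted p = 0.057) with edgeR, and with limma-voom (-1.44, adjusted p = 0.22). Csf1r (0.30, adjusted p = 0.044), Csf2ra (0.41, adjusted p = 0.0044) and Csf2rb2 (-0.64, adjusted p = 0.0064) also passed edgeR's test, at under 2-fold. Over the 40 alternative settings the adjusted p of Csf1r reached 0.11, while those of Csf2ra and Csf2rb2 stayed at or below 0.0203. Each organ had its own Cre line, so Cre line and cell type cannot be told apart.

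Flt3 and Csf2 were at the edge of detection. Flt3 (chr5:147330741-147400489, minus strand) reached 2.45 CPM at most in CRE- KCs, 2.30 in Tim4+ KCs, 3.58 in Tim4- KCs, 0.585 in CRE- AMs, 0.693 in CD11b- AMs and 2.38 in CD11b+ AMs. At least 1 sample of each AM group was at 0. The difference of CRE- KCs over CRE- AMs, 2.56 (SE 1.04, edgeR adjusted p = 0.044), was called in 6 of 19 alternative settings. The call was lost without any 1 of CRE- AM replicates 1, 3, 4 and 5 or of CRE- KC replicates 4, 5 and 6. Their edgeR adjusted p was 0.056 to 0.093 (model fitted across all genes). The difference was 0.97 (edgeR adjusted p = 0.54) without KC samples with any Ddx3y count. With KC samples of at most 3 Ddx3y counts, a setting chosen after the data were seen, it was 1.51 (edgeR adjusted p = 0.25). Csf2 (chr11:54247271-54249667, minus strand) had 0 counts in all CRE- KCs and all AMs, which allows up to 0.125 to 0.172 CPM in a sample, at 3 counts of its total and for counting error only. It had 2 counts in Tim4+ KC replicate 4 and 13 counts in Tim4- KC replicate 4, the other 5 samples of either group being at 0. The 7 T cell and innate lymphoid markers, which mark known sources of GM-CSF, summed to at most 23.6 CPM in KCs and 66.4 CPM in AMs.

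The levels of each gene had the following order across the 6 groups. For Csf1r the 3 KC groups stood above the 3 AM groups, with neighbours overlapping within KCs and between both CRE+ AM groups. For Csf2ra and Csf2rb the 3 AM groups stood above the 3 KC groups, again without overlap between organs. For Csf3r CD11b+ AMs were highest, CD11b- AMs and all KC groups formed a run of overlapping ranges, and CRE- AMs were lowest, overlapping CRE- KCs. For Kit all KC groups stood above all AM groups, and for Csf1 the KC groups and CD11b+ AMs overlapped above CRE- and CD11b- AMs.

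Of the 12 other ligands and receptor subunits of these families, 4 or 5 had enough counts to be tested in each comparison. Among CRE- cells 4 of 4 tested were higher in KCs, beside 33.3% of all genes called in either direction: Kitl, the KIT ligand (3.69), Flt3l, the FLT3 ligand (2.96), Il3ra, the α-chain for interleukin-3 (1.21), and Epor, the erythropoietin receptor (1.17), as log2 fold changes. In Tim4- KCs, Kitl fell with Kit, from 12.2 ± 2.89 CPM in CRE- KCs and 11.5 ± 2.95 CPM in Tim4+ KCs to 1.92 ± 0.92 CPM (SD, n = 6), with log2 fold changes of -2.68 against CRE- (edgeR adjusted p = 4.09e-07) and -2.57 against Tim4+ KCs (edgeR adjusted p = 7.76e-06). Kitl as a percentage of the endothelial sum was 0.838 to 2.66% in CRE-, 0.437 to 1.2% in Tim4+ and 0.357 to 0.931% in Tim4- KCs. Over the 18 KC samples the log2 levels of Kitl and that sum had r = 0.84, and 0.132 within groups, where Kit had 0.736. Epor was lower in Tim4- KCs by the same comparisons (-1.57 and -1.72), and in Tim4+ KCs 0 of 5 passed with edgeR, limma-voom or DESeq2, 0 of them with an unadjusted p under 0.05 with edgeR.

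In AMs Flt3l rose in CD11b- cells (1.47) and CD11b+ cells (2.32), from 0.546 ± 0.2 CPM in CRE- AMs to 1.52 ± 0.711 and 2.78 ± 0.501 CPM (SD, n = 5). Il3ra fell in CD11b- cells (-1.36) and was higher in CD11b+ than in CD11b- cells (1.93), and Epor fell in CD11b+ cells (-2.37). All of these passed edgeR's adjusted p under 0.05. The interleukin-3, interleukin-5 and erythropoietin genes Il3, Il5 and Epo had 0 counts in every sample, and Il34, Csf3, Thpo and Il5ra stayed at or below 1.32 CPM.

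Of 35 genes that act below these receptors, all were tested, and the medians stayed between -0.12 and 0.13 in every comparison, beside -0.03 to 0.03 over all genes. Among CRE- cells 6 were higher in KCs and 7 in AMs, beside 33.3% of all genes called. Of those with a mean log2 CPM of at least 3 in the higher group, the 4 with the largest change were higher in AMs: Cish, an inhibitor of cytokine signaling (-4.80, 58.2 ± 14.1 CPM in AMs and 2.09 ± 1.18 CPM in KCs), the kinase gene Pim1 (-3.10), Socs2 (-2.59) and Stat5a (-2.45). In Tim4+ KCs and in CD11b- AMs 0 of 35 passed with edgeR, limma-voom and DESeq2, while 8 and 17 had an unadjusted p under 0.05 with edgeR. In Tim4- KCs Pim1 alone of these rose, by 1.93 over CRE- and 1.08 over Tim4+ KCs. In CD11b+ AMs 3 rose and 4 fell against CRE- AMs, beside 15.3% of all genes, led by the adaptor gene Dok2 (-2.69), the inhibitors Socs1 (2.23) and Socs3 (1.45), and Jak2, the kinase of the GM-CSF receptor (1.32). Against CD11b- AMs 2 were higher and 2 lower, beside 10.2%, with Dok2 at -2.15, Socs1 at 1.87, Sla at -1.17 and Jak2 at 1.08. In the interaction Socs1 (-1.47) and Dok2 (1.43) differed.

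Of 14 transcription factors known to act at Csf1r or below GM-CSF, 5 were higher in CRE- KCs and 4 in CRE- AMs, beside 33.3% of all genes, led by Maf (10.67, a fold that depends on the prior count since Maf had at most 4 counts in any CRE- AM sample) on the KC side and by Egr2 (-7.49) and Pparg (-3.59) on the AM side. In AMs 13 of the 14 could be tested. PU.1's gene Spi1 was at 663 ± 76.2 CPM (SD, n = 6) in CRE- KCs and 736 ± 25.7 CPM (SD, n = 5) in CRE- AMs. In Tim4- KCs Id2, an inhibitor of E-protein factors (1.26), and Pparg (1.17) rose. Against CRE- KCs 0 of 14 passed in Tim4+ KCs, and 0 of 14 between Tim4- and Tim4+ KCs, with edgeR, limma-voom and DESeq2, while 8 and 4 had an unadjusted p under 0.05 with edgeR. In CD11b- AMs Id2 alone of these rose (2.17). In CD11b+ AMs 2 rose against CRE- AMs, among them Id2 (3.60), and 2 fell, Egr2 (-2.06) and Cebpa (-1.5). Against CD11b- AMs 2 were higher, among them Id2 (1.43), and 1 was lower, Egr2 (-1.06). Maf (-3.05), Id2 (-1.79), Egr2 (2.40) and Pparg (1.18) differed in the interaction, the value for Maf depending on its few CRE- AM counts given above.

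The genes most like each member were taken as those with the highest Pearson r of log2 CPM over all 33 samples, among which those of 1 organ share the organ's levels and each value shares its library's depth. For Csf1r these were the KC lectin Clec4f (0.996), Sdc3 (0.994) and Tlr12 (0.993), and Clec4f was also among the 3 highest over the 6 group means. For Csf2ra they were Crat (0.970), Atg7 (0.966) and Iqgap1 (0.966), for Csf2rb Furin (0.974), Shisa5 (0.969) and Arhgdia (0.968), and for Csf2rb2 Dip2a (0.939), Galnt6 (0.937) and Tnfrsf1b (0.935). For Csf3r they were Slc2a1 (0.947), Akt2 (0.929) and Cnn2 (0.924). For Kit they were Esam, an endothelial adhesion gene (0.917), Slc39a8 (0.916) and Ralgps2 (0.915), and for Csf1 Micall2 (0.915), Arhgef10l (0.915) and Sh3bp4 (0.899). Flt3 was most like Xcr1, a dendritic cell gene (0.749), Mzb1 (0.733) and P3h2 (0.711). Within groups, Csf1r went with Csf2ra in both organs (r = 0.793 over 18 KC and 0.843 over 15 AM samples).

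Markers of other cells stood as follows where they bear on these genes. The 6 dendritic cell markers summed to 14.6 to 43.4 CPM in KCs and to at most 17.8 CPM in AMs, and 3 of 5 tested rose in Tim4- KCs and 2 of 5 in CD11b+ AMs. The 5 B cell markers summed to at most 37.0 CPM in CRE- KCs and 75.1 to 207 CPM in CRE+ KCs, and to at most 9.41 CPM in CRE- AMs and 58.7 to 84.8 CPM in CD11b+ AMs. Of those tested, 1 of 4 was higher in Tim4+ and in Tim4- KCs and 1 of 3 in CD11b+ AMs, each time Ms4a1, which encodes CD20 (log2 fold changes of 4.0, 4.83 and 4.37), and Pax5 was at 0 in all AM samples. CD20 is reported by the study on KCs that lost both Zeb2 copies. Monocyte markers summed to 76.2 to 308 CPM in CRE- KCs and 361 to 874 CPM in Tim4- KCs, with 2 of 4 tested higher. The 8 lung epithelium markers summed to 42.6 to 49.6 CPM in CRE- AMs and 933 to 1323 CPM in CD11b+ AMs, with 4 of 8 higher. They include Epcam, whose product the study reports on AMs that lost both Zeb2 copies. Of the 5 general macrophage markers, 0 passed with edgeR, limma-voom or DESeq2 in each comparison between CRE+ and CRE- cells, 2 to 4 having an unadjusted p under 0.05 with edgeR. They summed to 7434 to 13193 CPM in KCs and 28702 to 38662 CPM in AMs. The part of these cells in the members' values was not tested.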

How the data were processed

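Gene-level read counts of 33 samples (6 groups) were used as deposited. Per the labels and the study's methods, the authors checked reads with FastQC 0.11.4, trimmed them with Trimmomatic 0.35, aligned them to the mouse genome mm10 with TopHat2 2.1.0, handled alignments with SAMtools 0.1.18 and counted reads per gene with HTSeq. Whether counting used strand is not given in the sources used here. The 5 tally rows, 5.88% to 10.1% of each sample's total, were left out. No 2 replicates agreed within sampling noise (lowest chi-square per gene 12.827 over 75 pairs).

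Genes that passed filterByExpr were tested with edgeR 4.0.16 (TMM factors, quasi-likelihood test) in R 4.3.3, in 8 comparisons. The 3 KC groups were fitted together, as were the 3 AM groups, CRE- KCs and CRE- AMs were fitted on their own, and the interaction used all 33 samples. A call needed an adjusted p under 0.05 (Benjamini-Hochberg, over all genes tested) and over 2-fold change. Levels are TMM-scaled CPM over all samples, with a prior count of 0.5 for log2. Per-length levels used the exons of GENCODE M21, which held 23376 of the gene symbols (95.72%). Tables were made with Python 3.11.15, numpy 2.4.6 and pandas 2.3.3. The tests were checked on simulated data.

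The members and gene lists were chosen with earlier results of these data known. Named were all 9 members, the 3 genes most correlated with each tested member, all partner genes, and per comparison at most 4 called signaling and 4 called regulator genes with the largest change and a mean log2 CPM of at least 3 in the higher group. Some listed genes that the rule would name are not reported here. Alternatives were limma-voom 3.58.1, DESeq2 1.42.0, RLE factors, no filter, other sets of samples, a replicate block, leaving out KC samples with Y-linked counts and leaving out each sample in turn. Keeping KC samples with at most 3 Ddx3y counts was added after the data were seen. For levels per length the alternative was the longest transcript of each gene. It moved Csf1r, Csf2ra and Csf2rb in every group, Kit in KCs and Csf1 in Tim4- KCs by more than their SD.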

Additional observations from a re-analysis of the deposited data

Results flagged for a closer look

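A sample stood far from the rest of its group in 5 of the 54 combinations of member and group tested, where chance gives about 1 in 20 groups. The count is not to be read against that rate, since 2 of the 5 are Csf2 groups with 1 sample above 0 and 4 of the 54 had every sample at 0. Csf1r was lowest in CD11b+ AM replicate 2, at 296 CPM. Csf2rb was lowest in Tim4- KC replicate 1, the shallowest library, at 141 CPM. Csf3r was lowest in CD11b- AM replicate 1, at 89.7 CPM. Csf2 was highest in Tim4+ KC replicate 4, at 0.0902 CPM, and in Tim4- KC replicate 4, at 0.705 CPM, the other samples of both groups being at 0.

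The mean change of both CRE+ groups differed between KCs and AMs for 5 members by the interaction term (edgeR, adjusted over all genes). The difference, KCs less AMs on the log2 scale, was 0.30 for Csf1r (adjusted p = 0.044), 0.41 for Csf2ra (adjusted p = 0.0044), -0.64 for Csf2rb2 (adjusted p = 0.0064), -1.89 for Csf3r (adjusted p = 1.55e-09) and -1.49 for Csf1 (adjusted p = 0.023). Over the 40 alternative settings the adjusted p reached 0.11 for Csf1r and 0.22 for Csf1.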

How the results depend on the processing

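Of the alternatives that kept all samples or left out a set of them, 477 values kept their direction and side of the threshold, 10 lost the call, 2 gained one and 11 changed sign. Leaving out 1 sample gave 1108, 14, 1 and 21 in the same order. With limma-voom the members called were 0 in Tim4- against CRE- KCs (Kit was lost), 1 in Tim4- against Tim4+ KCs and 1 in the interaction (Csf1 was lost in both). Without KC samples with any Ddx3y count 1 member was called between Tim4- and Tim4+ KCs. The genes called in Tim4+ against CRE- KCs were 141 in that setting and 190 with at most 3 Ddx3y counts (chosen after seeing the data), against 289. Leaving out 1 sample gave 1 to 2 members in Tim4- against Tim4+ KCs and 1 to 2 in the interaction.

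Values that changed sign were small or rested on few counts. Without Y-linked counts, and with at most 3 Ddx3y counts, Tim4- against Tim4+ KCs gave -0.038 and -0.0014 for Csf1r and -0.17 and -0.054 for Csf2rb2. Flt3 in CD11b- AMs was -0.26 with limma-voom. Flt3 in the interaction was 0.33 with limma-voom, 1.12 without Y-linked counts and 0.46 with at most 3 Ddx3y counts. Leaving out 1 sample moved Flt3 from -0.17 to 0.52 in Tim4+ KCs, Csf2rb from -0.14 to 0.022 in Tim4- KCs, Csf2rb2 from -0.057 to 0.12 between Tim4- and Tim4+ KCs, and in CD11b- AMs Csf2rb2 from -0.026 to 0.091, Flt3 from -0.33 to 1.51 and Kit from -1.26 to 1.08. Kit in CD11b+ AMs was called with all 33 samples in 1 fit, at 2.75 over CRE- AMs (edgeR adjusted p = 0.021). The cause was not tested.

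No comparison had every same-numbered pair over a correlation of 0.1, and the numbers were not taken as pairs. The nearest was Tim4- against Tim4+ KCs, with 5 of 6 pairs over 0.1 and all 6 samples closest to their own number. These pairs ran from 0.094 to 0.203 (mean 0.155), against a mean of -0.031 between other numbers. Pairs of CD11b+ and CD11b- AMs ran from 0.032 to 0.087, with 4 of 5 closest to their own number. The main p-values of both comparisons leave such a pairing out. With a replicate block 2 members were called in each. With the replicate block 308 genes were called in Tim4+ and 1139 in Tim4- against CRE- KCs, and 5 members between CRE- KCs and CRE- AMs, where Flt3 was 2.51 (edgeR adjusted p = 0.07). The replicate block gave -0.20 for Flt3 and -0.24 for Kit in CD11b- AMs and 0.52 for Flt3 in the interaction, and changed no other member's call. Depth limits Flt3, Csf2 and, in AMs, Kit.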
